A study of Mus musculus with 23 samples.

Results

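Cmpk2 and Rsad2 are a pair of adjacent antiviral genes on mouse chromosome 12, selected on their mRNA levels, which already stood higher in growth medium in KO-labelled libraries than in control libraries. They make up 2 of the 32793 genes in the deposited tables and 2 of the 14187 genes that were tested. The values that chose them are the day 0 levels of the KO-labelled libraries and WT, so the day 0 difference between genotypes is given as a description without a test. They were also chosen as unlike the other interferon genes in growth medium, so that contrast on day 0 was set by the choice. Both passed the filter on low counts, which their high libraries on days 3 and 6 alone would satisfy.

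The study profiled poly(A) RNA of C2C12, a mouse myoblast line that leaves the cell cycle and fuses into myotubes when serum is withdrawn. Control cells (WT) and Runx1KO cells were harvested on day 0, while growing in 20% fetal bovine serum, and on days 1, 3 and 6 in differentiation medium with 2% horse serum. The 23 libraries fell into 8 groups of 3, except WT on day 0, of which 2 libraries were analysed. The titles give the last time point as day 6 and the series text gives day 5; the titles were followed. No other allele or agent is named in the labels, and they do not say how the knockout was made, whether the Runx1KO cells are 1 clone, or whether replicates came from separate cultures, so p values measure the spread between these libraries, which may be technical.

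The labels were checked in the data first. Runx1, the targeted gene, was not lower in the KO-labelled libraries: it stood at 118 to 122 CPM (counts scaled to the effective library size) against 83.9 to 84.0 CPM in WT on day 0, and at 297 to 319.7 CPM against 146 to 165 CPM on day 6 (log2 fold changes of 0.51 and 1.02), so every direction below refers to the libraries as labelled. Each library held between 22197606 and 23684077 estimated counts. The counts of replicates differed by more than sampling noise, where the chi-square per degree of freedom lay between 3.19 and 64.9 and was highest for the pairs with replicate 2 of the KO-labelled libraries on day 1. All 8 myoblast markers were detected in every group, and their summed level was higher in the KO-labelled libraries without overlap on day 0 (3080 to 3220 against 2290 to 2370 CPM), day 3 (4350 to 4760 against 3450 to 3630) and day 6 (4900 to 5580 against 3110 to 3650), and overlapped on day 1 (3020 to 3740 against 3300 to 3480). The sum weighs the most abundant markers, Des and Itga7, most heavily. Of the 8, 2 were called higher and 2 lower on day 1 (22.9% and 19.2% of all tested genes). On day 3, 4 were higher and 0 lower (24% and 19.2%), and on day 6, 5 and 2 (22% and 20.8%). Des and Cdh15 were higher on days 1, 3 and 6 (log2FC 0.22, 0.55 and 0.83, and 0.45, 0.52 and 0.64). Itga7 was at -0.12 and 0.08 on days 1 and 3 and higher on day 6 (0.54). The macrophage genes Adgre1, Fcgr1 and C1qa were at 0 in all 23 libraries, Ptprc had at most 1 count, and the 8 lymphocyte genes summed to at most 0.212 CPM. The summed level of the 10 macrophage markers was 2.24 to 3.04 CPM in the day 0 KO-labelled libraries and 2.59 to 2.99 CPM in WT, and reached 10.9 to 13.0 against 5.28 to 8.60 CPM on day 6, mostly from Cd68, a lysosomal gene, while Csf1r was lower on days 1, 3 and 6 (log2FC -1.79, -2.98 and -2.04). The 5 plasmacytoid dendritic cell markers summed to 302 to 350 against 127 to 139 CPM on day 6; Siglech was at 0 in all libraries, Bst2, also an interferon target, was lower on day 1 and higher on days 3 and 6 (log2FC -0.89, 2.82 and 4.26), and Tcf4 was at -0.13, -0.30 and -0.34. The 5 endothelial markers summed to at most 1.25 CPM, and Tek, the only 1 of them tested, was not called on days 1, 3 and 6. The part of these marker lists in the results was not tested.

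Cmpk2 encodes a mitochondrial kinase that adds a phosphate to pyrimidine nucleoside monophosphates. Rsad2 encodes viperin, a radical SAM enzyme bound to the endoplasmic reticulum and lipid droplets that turns CTP into a chain-terminating nucleotide and so interferes with the copying of viral RNA. Both are classical targets of type I interferon: the cytokine binds its receptor, the receptor's kinases Jak1 and Tyk2 become active, and a complex that holds Irf9 then binds interferon-stimulated response elements (ISREs) in promoters. Rsad2 is also known to be switched on by interferon regulatory factors without interferon.

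In RefSeq annotation of GRCm38.p6, the build that corresponds to the mm10 named in the submitters' processing notes, Rsad2 lies at chr12:26442743-26456452 on the minus strand and Cmpk2 at chr12:26469117-26479837 on the plus strand. The genes point away from each other, the starts used in the RefSeq promoter table are 12.8 kb apart, and no RefSeq gene lies in the 12664 bases between them. That table sets the Rsad2 start at base 26456452 and the Cmpk2 start at base 26469215, which lies inside the Cmpk2 gene as annotated, so the last part of the Cmpk2 stretch below, with both of its Runx sites, overlaps the annotated gene. The stretches of 250 bases before these starts are shown because both mRNAs rose in the KO-labelled libraries; capitals mark ISRE cores and Runx sites on either strand, and the 5′ end is the end farthest from the start. They are chr12:26468965-26469214 (plus strand) for Cmpk2 and chr12:26456453-26456702 (minus strand) for Rsad2.

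Cmpk2: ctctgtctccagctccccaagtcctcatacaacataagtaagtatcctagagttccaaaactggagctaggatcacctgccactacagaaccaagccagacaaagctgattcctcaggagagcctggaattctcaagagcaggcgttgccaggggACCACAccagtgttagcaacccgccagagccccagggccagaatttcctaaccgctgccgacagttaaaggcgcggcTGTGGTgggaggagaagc
Rsad2: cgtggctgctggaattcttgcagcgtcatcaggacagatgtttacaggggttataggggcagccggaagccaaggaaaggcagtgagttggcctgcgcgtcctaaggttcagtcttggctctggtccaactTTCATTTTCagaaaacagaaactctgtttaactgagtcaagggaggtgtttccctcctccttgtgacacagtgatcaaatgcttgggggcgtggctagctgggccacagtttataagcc

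The promoters were searched on both strands over windows of 250 bases before to 50 after the promoter table's start, from which positions are counted. The ISRE core, GAAANNGAA, occurred once in the Rsad2 window, on the strand opposite to the gene at -119 to -111 from the start, and not in the Cmpk2 window. It is held by 8.6% of the 32851 promoter windows in the RefSeq table. The Runx site, TGTGGT or TGCGGT, occurred 2 times in the Cmpk2 window, at -95 to -90 and -18 to -13, and not in the Rsad2 window, against 22.4% of all windows. The ETS core, GGAAG, was in the Rsad2 window only (71.4% of all windows), and the gamma-activated site, TTCNNNGAA, was in neither (8.3%). The searched motifs therefore differed between the 2 genes, and a match is no evidence of binding.

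In growth medium both genes were expressed at a low level in the KO-labelled libraries and were near the detection floor in WT. Cmpk2 had 22, 11 and 16 counts in the 3 KO-labelled libraries and 4 and 3 counts in the 2 WT libraries. Rsad2 had 20, 13 and 16 counts against 1 and 1. The groups did not overlap for either gene, in the values that chose them. In bulk RNA such as this, fewer cells with the mRNA and less mRNA per cell cannot be told apart. In CPM, Cmpk2 averaged 0.751 ± 0.242 (SD, n = 3) against 0.157 ± 0.026 (SD, n = 2), and Rsad2 averaged 0.752 ± 0.151 (SD, n = 3) against 0.045 ± 0.0016 (SD, n = 2). With the counts of each group pooled, the ratio of KO-labelled libraries to WT was 4.77 for Cmpk2 (95% exact counting interval 2.15 to 12.5) and 16.7 for Rsad2 (4.38 to 142). Such intervals, here and below, cover counting error only and take no account of the spread between libraries. On day 0 they also take no account of the choice of the genes by these values. The fitted log2 fold changes (log2FC) were 2.21 (SE 0.56) and 3.91 (SE 0.83). Of all tested genes, 7.36% were called higher in the KO-labelled libraries on day 0.

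A day after serum withdrawal the difference was also present. The choice named the day 0 level, but the genes were chosen with earlier results of these data known. The tests on days 1, 3 and 6 are therefore no independent support. Cmpk2 had 25, 47 and 37 counts in the KO-labelled libraries and 1, 4 and 0 in WT. Rsad2 had 25, 52 and 34 counts against 5, 0 and 7. Every KO-labelled library exceeded every WT library. The share of all tested genes whose groups separate in this way was not counted, on this or any other day. The mean levels were 1.58 ± 0.425 against 0.071 ± 0.088 CPM for Cmpk2 and 1.61 ± 0.530 against 0.170 ± 0.154 CPM for Rsad2 (SD, n = 3 each). In edgeR's quasi-likelihood test, with p values adjusted over all tested genes (Benjamini-Hochberg), the log2FC was 4.38 for Cmpk2 (SE 0.49, adjusted p = 2.45e-07) and 3.21 for Rsad2 (SE 0.46, adjusted p = 7.74e-06), in a comparison that called 22.9% of all genes higher. The highest counts of both genes were in replicate 2 of the KO-labelled libraries, which stood apart from its replicates; without it the values were 4.17 and 2.90. The size rests on few WT counts: without WT replicate 2 the log2FC of Cmpk2 was 5.89, and without WT replicate 3 that of Rsad2 was 3.86.

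By day 3 both mRNAs had risen in the KO-labelled libraries and had stayed near the floor in WT. Cmpk2 had 156, 99 and 127 counts against 2, 1 and 1 in WT. Rsad2 had 311, 184 and 236 counts against 3, 3 and 2. The levels were 5.73 ± 1.32 CPM for Cmpk2 and 10.96 ± 2.95 CPM for Rsad2 in the KO-labelled libraries, and 0.058 ± 0.025 and 0.116 ± 0.025 CPM in WT (SD, n = 3 each). The log2FC was 6.50 for both genes (SE 0.43 for Cmpk2 and 0.39 for Rsad2, edgeR adjusted p = 3.26e-11 and 7.39e-12; 24% of all genes were called higher). Pooled counts gave ratios of 98.8 for Cmpk2 (counting interval 38.3 to 365) and 94.6 for Rsad2 (47.7 to 219.9).

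Day 6 held the highest levels of both genes. Cmpk2 reached 378, 487 and 488 counts in the KO-labelled libraries, against 2, 0 and 1 in WT. Rsad2 reached 506, 720 and 652 counts, against 4, 3 and 9. In pooled counts the ratio of KO-labelled libraries to WT was 456 for Cmpk2 (counting interval 156 to 2215) and 119 for Rsad2 (72.9 to 208). The level was 19.6 ± 2.56 CPM for Cmpk2 and 27.2 ± 4.44 CPM for Rsad2, against 0.043 ± 0.043 and 0.227 ± 0.131 CPM in WT (SD, n = 3 each). The log2FC was 8.66 (SE 0.41, edgeR adjusted p = 4.43e-14) and 6.86 (SE 0.34, adjusted p = 1.12e-13), and 22% of all genes were called higher. With 3 Cmpk2 counts over the 3 WT libraries, its fold is poorly bounded from above, and without WT replicate 1 its log2FC was 9.48.

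**Figure D1:**
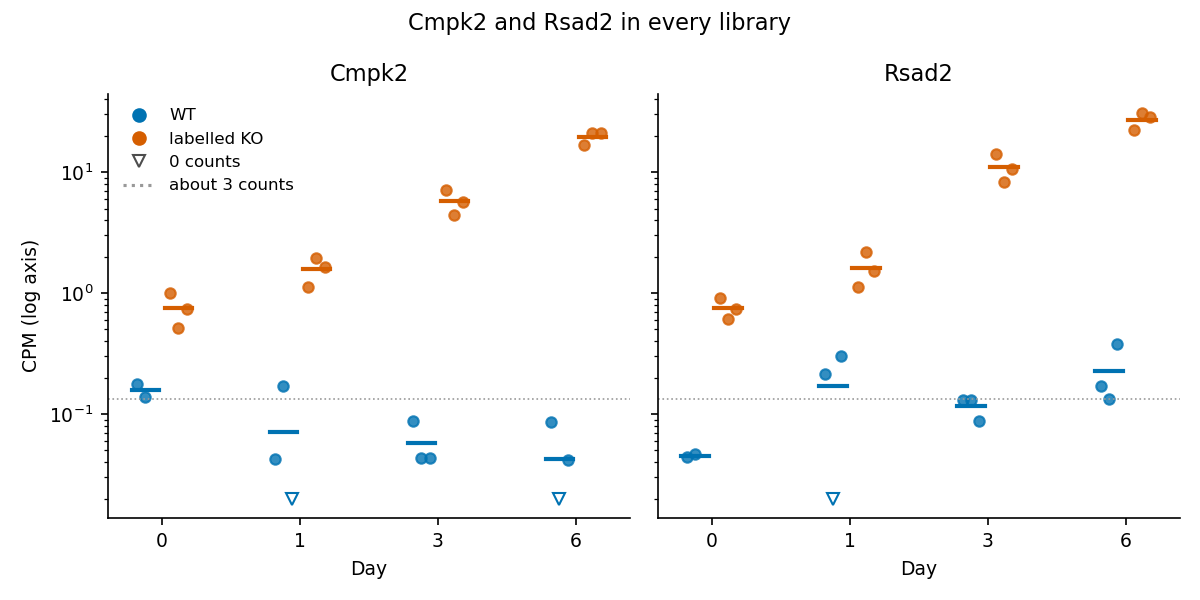
Level of Cmpk2 (left) and Rsad2 (right) in each of the 23 libraries, in CPM on a log axis, by day; points are libraries, horizontal bars are group means and open triangles mark libraries with 0 counts, placed at an arbitrary low position. The dotted line is the level of about 3 counts. In the KO-labelled libraries the group means climb from about 0.75 CPM on day 0 to 19.6 and 27.2 CPM on day 6, and no WT library reaches a KO-labelled library of the same day.

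Within the KO-labelled libraries both genes were higher at each later time, by uneven steps. From day 0 to day 1 the pooled counts rose 2.12-fold for Cmpk2 (counting interval 1.497 to 3.03) and 2.15-fold for Rsad2 (1.53 to 3.08), given as a description because the day 0 libraries chose the genes. From day 1 to day 3 Cmpk2 rose by a log2FC of 1.85 (SE 0.25, edgeR adjusted p = 5.50e-06) and Rsad2 by 2.76 (SE 0.26, adjusted p = 1.79e-08); 15.5% of all genes rose in that step. In pooled counts the Rsad2 steps were 6.75-fold from day 1 to day 3 (5.52 to 8.31) and 2.49-fold from day 3 to day 6 (2.29 to 2.72). From day 3 to day 6 Cmpk2 rose by 1.78 (SE 0.21, adjusted p = 5.36e-07) and Rsad2 by 1.31 (SE 0.21, adjusted p = 2.65e-05), with 20.2% of all genes rising. Both steps together were passed by 6.72% of all tested genes. Over the whole course the pooled level on day 6 was 26.1 times that on day 0 for Cmpk2 (19.6 to 35.4) and 36.2 times for Rsad2 (27.3 to 49.1). The order of the group levels was the same for both genes, day 0, 1, 3 and 6 from lowest to highest. The days 0 and 1 were the only neighbours whose libraries came close: the highest day 0 library, at 0.998 CPM for Cmpk2 and 0.907 for Rsad2, lay just under the lowest day 1 library, at 1.13 CPM for both.

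In WT neither of the tested steps was called, at counts of 0 to 9 per library. The fitted log2FC of Cmpk2 was -0.27 (SE 0.96, edgeR adjusted p = 0.884) from day 1 to day 3 and -0.38 (SE 1.06, adjusted p = 0.882) from day 3 to day 6. For Rsad2 it was -0.53 (SE 0.79, adjusted p = 0.701) and 0.95 (SE 0.74, adjusted p = 0.493). Over the 11 WT libraries Cmpk2 had at most 4 counts and Rsad2 at most 9, the latter in replicate 3 of day 6. Between the ends of the course, given as a description, pooled Rsad2 counts were 16 on day 6 and 2 on day 0, a ratio of 5.09 (counting interval 1.20 to 45.6), and those of Cmpk2 were 3 and 7, a ratio of 0.273 (0.0455 to 1.20). Of the 16 Rsad2 counts on day 6, 9 were in replicate 3, and the fitted log2FC was 2.21 (SE 1.06). The order of the WT groups is not settled by these counts.

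Whether the genotype difference grew between days was tested as an interaction. For Rsad2 it was larger on day 3 than on day 1, by 3.29 on the log2 scale (SE 0.87, edgeR adjusted p = 0.0234; 3.47% of all genes passed in this direction). This call was lost with only the 4 groups concerned in the fit (3.28, adjusted p = 0.0607), and without replicate 1 or 3 of WT on day 1 (3.07 and 2.64, adjusted p = 0.106 and 0.243) or replicate 3 of WT on day 3 (3.13, adjusted p = 0.0581). For Cmpk2 the value was 2.11 (SE 1.08, adjusted p = 0.273), and without replicate 2 of WT on day 1, which held 4 of the 5 WT counts, it was 0.57. Between days 3 and 6 the difference changed by 2.16 for Cmpk2 (SE 1.19, adjusted p = 0.263; 3.02 without replicate 1 of WT on day 6) and by 0.36 for Rsad2 (SE 0.91, adjusted p = 0.855), in a comparison where 6.36% of all genes passed upwards. The WT counts in these groups were 0 to 9 per library.

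In the KO-labelled libraries the 2 genes ranked the replicates alike on 3 of the 4 days, but their ratio was not constant. In TPM (a unit that allows for transcript length), Cmpk2 stood at 0.367 ± 0.120, 0.870 ± 0.266, 2.95 ± 0.684 and 10.3 ± 0.904 on days 0, 1, 3 and 6 in the KO-labelled libraries (SD, n = 3 each). Rsad2 stood at 0.303 ± 0.065, 0.743 ± 0.272, 4.71 ± 1.28 and 11.9 ± 1.48 TPM. Ranked by CPM, the KO-labelled libraries of a day came in the same order for both genes on days 0, 1 and 3; on day 6 replicate 1 was lowest for both, and replicates 2 and 3 swapped places with nearly equal Cmpk2 counts. In WT, at 0 to 9 counts, the orders did not match on day 1, when Cmpk2 had 1, 4 and 0 counts and Rsad2 5, 0 and 7.

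The log2 ratio of Rsad2 to Cmpk2 TPM was -0.24 ± 0.17 on day 0 and -0.24 ± 0.11 on day 1, rose to 0.67 ± 0.06 on day 3 and was 0.21 ± 0.08 on day 6 (SD, n = 3 each). As a ratio of TPM, the 3 libraries were at 0.755, 0.960 and 0.833 on day 0 and at 0.831, 0.920 and 0.789 on day 1. On day 3 they were at 1.66, 1.55 and 1.55, and on day 6 at 1.12, 1.23 and 1.11. Rsad2 was thus the more abundant transcript in every library of days 3 and 6, and the day 3 libraries overlapped with those of no other day. On days 0 and 1 its TPM was the lower in every library, from 11 to 52 counts a gene. The pooled count ratio, which does not allow for length, was 1 on day 0 (counting interval 0.659 to 1.52), 1.02 on day 1 (counting interval 0.775 to 1.34), 1.91 on day 3 (1.69 to 2.17) and 1.39 on day 6 (1.29 to 1.49); the intervals of days 0 and 1 are too wide to set an order of the 2 genes there. No test of the ratio was planned, and 3 libraries against 3 allow no small exact p.

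**Figure D2:**
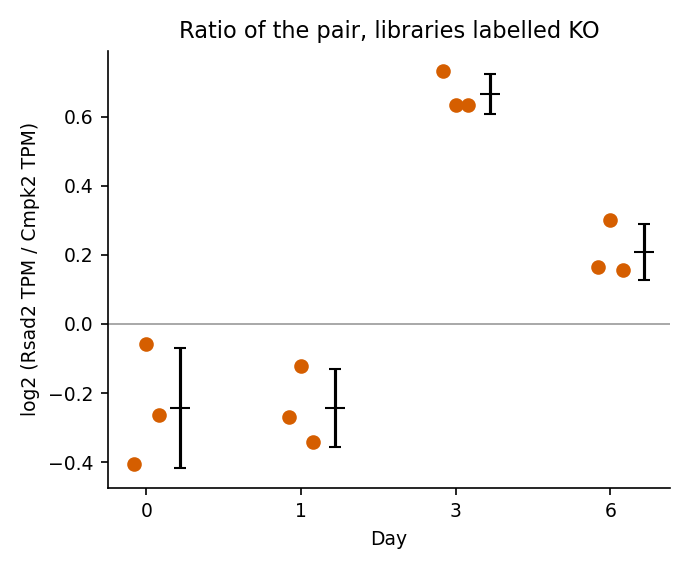
Log2 ratio of Rsad2 TPM to Cmpk2 TPM in the 12 KO-labelled libraries, by day; points are libraries and the bars beside them give the mean ± SD of 3. The day 3 libraries, at 0.63 to 0.73, lie above all others, the day 6 libraries lie between, at 0.16 to 0.30, and all day 0 and day 1 libraries lie below 0.

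Of a list of 64 further interferon targets, 62 were tested. On day 0, 2 were called higher and 13 lower in the KO-labelled libraries, against 7.36% and 10.1% of all genes. Of the 62, 15 had at most 3 counts in every day 0 library, too few to be called there with any ease. The pair was chosen as unlike other interferon genes on day 0, so its contrast with this list there restates the choice. On day 1, 5 were called higher and 23 lower (22.9% and 19.2% of all genes), with a median log2FC of -0.29 against 0.03 for all tested genes. On day 3, 53 were higher and 3 lower (24% and 19.2%), and on day 6, 58 were higher (22%) and the other 4 were not called; the medians were 2.07 and 3.49, against 0.04 and 0.00 for all genes. Of the 53 genes higher on day 3, all were also higher on day 6, and 48 had not been called higher on day 1. Among the pair and the listed genes together, Cmpk2 and Rsad2 ranked 1 and 2 by log2FC on day 1 and again on day 3, and 3 and 11 on day 6, when Oas2 headed the list at 11.51. Their abundance was modest: on day 6 they ranked 48 and 46 of 64 by mean TPM in the KO-labelled libraries, where the list's median was 24.7 TPM and Ifitm3 was highest. Lgals3bp, the other most abundant listed gene by CPM, was at -0.29 on day 1 (adjusted p = 0.165) and higher by 2.54 and 3.55 on days 3 and 6.

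**Figure D3:**
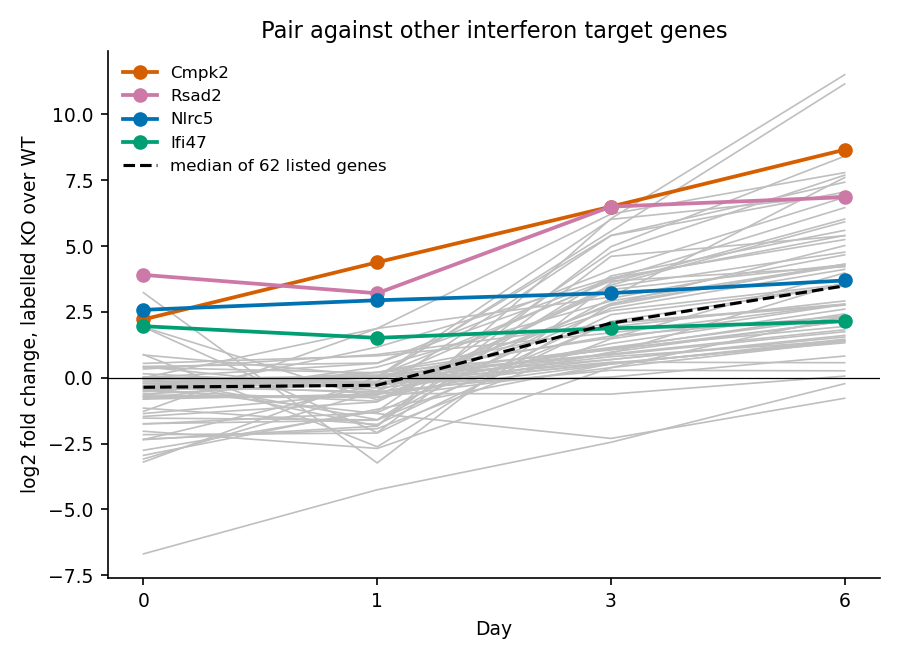
Log2 fold change of the KO-labelled libraries over WT by day for Cmpk2, Rsad2 and the 62 tested interferon targets (grey, with Nlrc5 and Ifi47 in colour; the dashed line is the median of the 62). The median lies below 0 on days 0 and 1 and at 2.07 and 3.49 on days 3 and 6, while the lines of Cmpk2 and Rsad2 start at 2.21 and 3.91. The day 0 contrast restates the choice of the pair. Values of genes with few counts, such as those at the edges on day 0, are imprecise.

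The pair was not alone in its early difference. Nlrc5, the activator of MHC class I genes, and Ifi47, an interferon-inducible GTPase, were the 2 listed genes called higher on both day 0 and day 1, as were 5.62% of all tested genes. Nlrc5 stood at 4.603 ± 1.11 CPM in the KO-labelled libraries on day 0 (SD, n = 3) and at 0.766 ± 0.036 in WT (SD, n = 2). Its log2FC was 2.94 on day 1, 3.21 on day 3 and 3.69 on day 6 (edgeR adjusted p = 1.08e-07, 7.52e-08 and 1.18e-09). Ifi47 had log2FC of 1.51, 1.87 and 2.14 on the same days (adjusted p = 0.000862, 2.73e-06 and 3.32e-08). In the KO-labelled libraries, Nlrc5 changed by -0.33 from day 1 to day 3 (adjusted p = 0.359) and rose by 0.99 from day 3 to day 6 (adjusted p = 0.00233), and Ifi47 rose by 1.63 and 1.47 (adjusted p = 2.90e-05 and 6.17e-06). The difference between these courses and those of Cmpk2 and Rsad2 was not tested. Ifit1 and Ifit2, which bind foreign RNA ends, were also higher on days 1, 3 and 6, as were 8.38% of all genes, with log2FC of 1.16, 3.79 and 5.25 for Ifit1 and 0.88, 2.06 and 2.76 for Ifit2; the fifth gene called higher on day 1 was Herc6 (0.83).

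By the root mean square difference of centred log2 CPM over the 23 libraries, with predicted genes known only by a model number left out, the gene most like each of the pair was the other (0.825). This did not hold by Pearson's r over the same libraries, which was 0.952 between the pair, below Herc6, Rtn4, Oxr1 and Gbp4 for Cmpk2 (0.957 to 0.968) and below 5 genes led by Sort1 for Rsad2 (0.958 to 0.973). Both measures include the day 0 libraries that chose the pair. By the first measure, Gbp9, a guanylate-binding protein gene, was the closest other gene to Rsad2 (0.90) and came after Xirp2 for Cmpk2 (1.06), and Xirp2, a gene of actin-binding repeats in striated muscle, was the closest to Cmpk2 (1.01) and came after Gbp9 for Rsad2 (1.07). The other 3 near Cmpk2 were Gbp4, Sfrp1 and Abcc9 (1.19, 1.19 and 1.23), and near Rsad2 Tceal7, Serpinb7 and Abcc9 (1.11, 1.12 and 1.15). Gbp9 went from 0.525 ± 0.311 to 2.16 ± 0.582, 7.05 ± 1.37 and 18.9 ± 2.05 CPM in the KO-labelled libraries over days 0, 1, 3 and 6 (SD, n = 3 each), and its WT means lay between 0.182 and 0.500 CPM. Its day 0 counts were 4 to 17 in KO-labelled libraries and 3 to 5 in WT. Xirp2 had 5 to 9 counts in the day 0 KO-labelled libraries and 0 in WT, and reached 7.97 ± 0.760 CPM on day 6. All libraries share the contrast of genotype and time, so likeness here shows at most a broadly similar course. Sfrp1 was at 33.91, 29.65, 40.54 and 53.73 CPM in the KO-labelled libraries on days 0, 1, 3 and 6 (means, n = 3 each). Abcc9 and Tceal7 had 0 counts in every day 0 library.

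**Figure D4:**
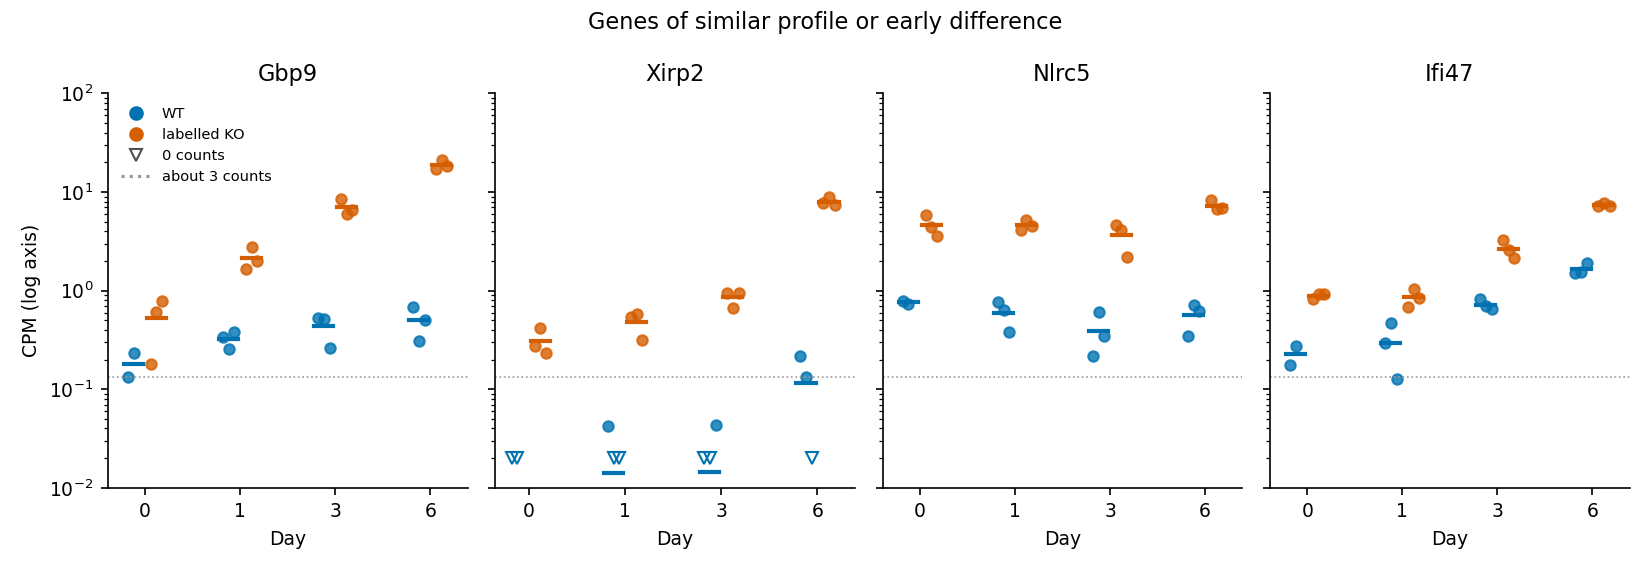
Levels of Gbp9 and Xirp2, the genes closest to the pair by root mean square difference, and of Nlrc5 and Ifi47, the interferon targets with an early difference, in CPM on a log axis by day; symbols as in the plot of Cmpk2 and Rsad2. Gbp9 climbs to 18.9 CPM in the KO-labelled libraries, Xirp2 rises mainly on day 6, and Nlrc5 is at 4.603, 4.607, 3.67 and 7.31 CPM on the 4 days.

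Upstream of the pair, the ligands were at or near 0. Of 11 interferon genes listed (type I, II and III), 7 had 0 counts in all 23 libraries. Ifnb1 had 1 count in 1 library, Ifna5 had 2 in 1 library, and Ifne had at most 2 in any library. Ifng, type II interferon, had 0, 1 and 4 counts in the day 1 KO-labelled libraries, 3, 1 and 8 on day 6, and 0 in every other library, WT included. On day 0 no ligand had more than 1 count. A count of 0 allows up to 3 counts, or 0.126 to 0.14 CPM in these libraries.

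The counts over lists that follow stand beside 22.9% of all tested genes called higher and 19.2% lower on day 1, 24% and 19.2% on day 3, and 22% and 20.8% on day 6, with median log2FC of 0.03, 0.04 and 0.00 over all genes. Of 7 receptors and kinases tested, 2 were lower on day 1, 1 was higher and 3 lower on day 3, and 2 were lower on day 6 (medians -0.12, -0.14 and -0.02). Ifnar1, a chain of the type I receptor, had log2FC of -0.09, -0.14 and -0.15 on days 1, 3 and 6 (adjusted p = 0.298, 0.116 and 0.0760), and Jak1 had 0.08, -0.24 and -0.28 (adjusted p = 0.428, 0.0167 and 0.00567). Of 8 transcription factors tested, 2 were lower and 6 not called on day 1, 5 were higher and 1 lower on day 3, and 6 higher and 1 lower on day 6 (medians -0.11, 0.645 and 1.53). Irf1 was at 0.16, 0.09 and 0.24 (adjusted p = 0.0791, 0.318 and 0.00788). Prdm1, a transcriptional repressor known to bind sites that overlap ISREs, was lower on all 3 days, at -2.43, -2.47 and -0.83 (adjusted p = 6.65e-07, 9.74e-08 and 0.00308).

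Of 7 inhibitors of interferon signalling, 1 was higher and 2 lower on day 1, and 2 were higher and 5 not called on both day 3 and day 6 (medians -0.02, 0.18 and 0.10). Socs3 was lower on day 1 (-0.39, adjusted p = 0.00456) and higher on day 6 (0.48, adjusted p = 0.000686), and Pias1 was higher on day 3 (0.18, adjusted p = 0.0449), at -0.04 and 0.10 on days 1 and 6. Of 12 genes of nucleic acid sensing, 3 were higher and 4 lower on day 1, 7 and 3 on day 3, and 6 and 2 on day 6 (medians 0.01, 0.32 and 0.27); the 3 higher on day 1 are near the 22.9% of all genes. Tlr3, the endosomal sensor of double-stranded RNA, was higher by 0.92, 1.64 and 2.36 on days 1, 3 and 6 (adjusted p = 0.00041, 2.57e-07 and 5.58e-10). Tbk1, the kinase that activates Irf3, was higher by 0.44, 0.30 and 0.36, Zc3hav1, an antiviral RNA-binding protein gene, by 0.31, 0.36 and 0.90, and Ikbke, a relative of Tbk1, was lower, at -0.56, -0.59 and -0.47. Adar, which edits double-stranded RNA, was at 0.01 on day 1 (adjusted p = 0.916) and higher by 0.77 and 1.49 on days 3 and 6. Irak1 was at 0.00, -0.04 and -0.12 and was not called.

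The genes that make the substrate of viperin differed by less than the pair. Of 15 genes of pyrimidine and CTP supply, 4 were higher and 2 lower on day 1, 4 and 2 on day 3, and 3 and 4 on day 6, against 22.9% and 19.2%, 24% and 19.2%, and 22% and 20.8% of all genes (medians -0.01, -0.07 and -0.09). Ctps, which makes CTP from UTP, was higher by 1.02, 0.66 and 0.57 (adjusted p = 1.77e-07, 4.25e-05 and 0.000259). Nme1 and Nme2, nucleoside diphosphate kinases whose similar sequences can split reads, were higher by 0.62, 0.60 and 0.25 and by 0.31, 0.22 and 0.22. Cad, which starts pyrimidine synthesis, was at 0.14, -0.19 and -0.25 and was not called. Cmpk1, the cytosolic counterpart of Cmpk2, was at 0.31 and -0.07 on days 1 and 3 (adjusted p = 0.0536 and 0.669) and lower, at -0.36 on day 6 (adjusted p = 0.0268). Of 18 genes of mitochondrial nucleotide supply and mitochondrial DNA upkeep, 8 were higher and 3 lower on day 1, 7 and 2 on day 3, and 8 and 2 on day 6, beside the same shares (medians 0.16, 0.18 and 0.18). Tfam, which packages mitochondrial DNA, was higher by 0.67, 0.59 and 0.47, and Polrmt, the mitochondrial RNA polymerase, by 0.33, 0.51 and 0.59. Samhd1, which breaks down deoxynucleotides, was lower on days 1 and 3 (-0.42 and -0.29) and at -0.03 on day 6.

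Of 9 nucleoside monophosphate kinases tested, 4 were higher and 3 lower on day 1, 4 and 3 on day 3, and 2 and 2 on day 6 (medians 0.22, 0.02 and 0.08), against 22.9%, 24% and 22% of all genes higher and 19.2%, 19.2% and 20.8% lower; the day 6 counts are at that background. Ak3, a kinase of the mitochondrial matrix, was higher by 0.22, 0.30 and 0.18, and Ak5 was lower, at -2.16, -3.01 and -1.24. Ak1 was lower on days 1 and 3 (-0.41 and -0.23) and at 0.08 on day 6. Of 7 other radical SAM enzymes, 1 was higher and 1 lower on day 1, 2 were higher on day 3, and 1 was higher and 1 lower on day 6; Lias, the lipoic acid synthase, was the one higher on all 3 days (0.34, 0.38 and 0.48), and the list's medians were -0.02, 0.05 and -0.06. Tyw1 was higher on day 3 (0.23), at -0.03 and -0.01 on the other days, and Elp3 was not called (-0.09, -0.11 and -0.06). Of 13 genes for iron-sulfur insertion or known partners of viperin, 3, 4 and 6 were higher on days 1, 3 and 6, and the others were not called (medians 0.01, 0.13 and 0.19); the day 1 count is at the 22.9% of all genes. Golm1, a Golgi membrane protein gene, was higher by 0.67, 0.48 and 0.29 on days 1, 3 and 6, Fam96a, of iron-sulfur protein assembly, by 0.36, 0.67 and 0.34, and Gbf1, an exchange factor of the early secretory pathway, by 0.22, 0.21 and 0.19. Fdps, the farnesyl diphosphate synthase that viperin binds, was at 0.21, -0.12 and -0.17 (adjusted p = 0.111, 0.376 and 0.192), and Vapa at -0.03, -0.05 and 0.07, also not called.

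Flanking genes had log2FC of smaller size than the pair. Rnf144a, the nearest protein-coding gene, ends 27423 bases from Rsad2 and had at most 2 counts in any library. The nearest tested genes lie far off, Id2 1346651 bases from the pair on the Rsad2 side and Sox11 854431 bases on the Cmpk2 side. Between Id2 and Sox11, RefSeq lists 27 further genes, of which 10 are rows of the tables and none exceeded 7 counts, so no closer gene was tested. Id2, an inhibitor of myogenic factors, was higher on day 0 like the pair (0.48, SE 0.087, edgeR adjusted p = 0.000286), at -0.18 and -0.03 on days 1 and 3 (adjusted p = 0.0809 and 0.825) and lower, at -0.29 on day 6 (adjusted p = 0.00658). Sox11, on the Cmpk2 side, was lower, at -0.33 on day 0 (adjusted p = 0.00303) and -0.41 on day 1 (adjusted p = 6.61e-05), at -0.05 on day 3 (adjusted p = 0.566) and higher by 0.23 on day 6 (adjusted p = 0.00845). The next genes, Kidins220, Mboat2, Dcdc2c and Rps7, had log2FC between -1.05 and 0.69 on days 1, 3 and 6. On day 0 Mboat2 was lower, at -1.01 (edgeR adjusted p = 0.000607), and Kidins220, Dcdc2c and Rps7 were not called.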

How the data were processed

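The authors deposited estimated counts per gene symbol, as whole numbers, and TPM for the same genes; Bowtie2, RSEM and mm10 are named, per the submitters' processing notes, without roles or versions, and gene annotation and strand settings are not given in the sources used here. All 23 columns of each table matched a sample title. Counts were rounded (which changed no value), filtered with filterByExpr (minimum count 10, minimum total 15), scaled by TMM and tested with edgeR 4.0.16 (quasi-likelihood, R 4.3.3) in a group-means model over all libraries, with Benjamini-Hochberg adjustment over 14187 genes and a threshold of 0.05. SE is derived from the F statistic. CPM use TMM-scaled library sizes; log2 CPM use a prior count of 2. Alternatives used limma 3.58.1 on log2(TPM + 1) and log2(TPM + 0.1), DESeq2 1.42.0, other scalings and filters, the groups compared alone, a replicate block, and omission of each library. The procedure was tested on simulated data. Pooled-count ratios carry exact conditional binomial 95% intervals. The genes, the lists and the tests were chosen with earlier results of these data known, so counts over the lists are descriptions. Named genes are the pair, Runx1, the 5 genes most like each of the pair (no Gm or Rik symbols), tested neighbours (up to 3 a side), and in each list up to 4 genes called in 1 direction on days 1, 3 and 6 by size of change plus the 2 most abundant, and interferon targets higher on days 0 and 1; Herc6, Oas2, Cmpk1, the genes ranked by Pearson's r and the single ligands, markers and extremes were chosen after their values were seen. Some genes that the rule names are not reported here. Sequences, positions and neighbours come from RefSeq on GRCm38.p6.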

Additional observations from a re-analysis of the deposited data

Results flagged for a closer look

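The genotype difference of Rsad2 was larger on day 3 than on day 1, by 3.29 on the log2 scale in edgeR's interaction test (SE 0.87, adjusted p = 0.0234, with Benjamini-Hochberg adjustment over all tested genes). On day 1 the 3 KO-labelled libraries held 25 to 52 counts and WT 0 to 7, and on day 3 they held 184 to 311 and WT 2 to 3. The adjusted p over the other settings ran from 2.68e-06 to 0.243.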

How the results depend on the processing

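Results on Cmpk2 and Rsad2 numbered 20, 18 of them with a test, and 301 of 318 recomputed values kept their direction and their side of the threshold (or, on day 0, moved by less than the SE). The genotype calls on days 1, 3 and 6 and the rises in the KO-labelled libraries held under every setting run. The day 0 log2FC on the log2(TPM + 1) scale was 0.34 for Cmpk2 and 0.35 for Rsad2, and on the log2(TPM + 0.1) scale 1.34 and 1.74; on day 1 the log2(TPM + 1) values were 0.84 and 0.68. The added constant understates folds of genes this low. The Cmpk2 interactions passed with log2(TPM + 1) (1.08 for days 1 to 3, 1.54 for days 3 to 6) and log2(TPM + 0.1) (1.66 and 1.88), as did the Rsad2 interaction of days 3 to 6 with log2(TPM + 1) (1.12); the cause was not tested. The Rsad2 interaction of days 1 to 3 missed the threshold with only the groups compared (3.28), and ran from 2.64 to 3.83 with a library left out. In WT the sign was not settled: the Cmpk2 change from day 1 to day 3 was 0.012 with log2(TPM + 0.1) and -0.82 to 1.24 with a library left out, that of Rsad2 -1.11 to 0.12, and the Cmpk2 change from day 3 to day 6 -1.22 to 0.13. A fit with replicate number as a block gave the day 1, 3 and 6 differences as 4.39, 6.50 and 8.66 for Cmpk2 and 3.21, 6.50 and 6.86 for Rsad2, and no call on the pair changed. Same-numbered libraries correlated across genes at -0.24 to 0.054 in their deviations from the group means. With so few libraries a group, this cannot decide whether they share a culture or a batch. Counts of all genes called moved by over 1.5 times with only the groups compared on day 1 (3607 against 5981), for the step from day 1 to day 3 in the KO-labelled libraries (1659 against 3790) and in WT (4642 against 2797). Leaving out replicate 3 of the KO-labelled day 3 libraries gave 1125 calls against 1753 for the interaction of days 3 and 6, and leaving out replicate 1 or 2 of WT on day 3 or replicate 1 of WT on day 6 gave 812, 778 and 762 against 1389 for that step in WT. Ranking likeness by Pearson's r kept 1 of 5 genes for each of the pair and did not put the pair closest to each other. Depth limits every fold against WT, where neither gene exceeded 9 counts.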
